A study of Oreochromis niloticus with 12 samples.

Results

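The cytosolic ribosomal proteins of fast muscle were described in the Nile tilapia, Oreochromis niloticus. They were taken as every gene whose NCBI symbol starts with rpl or rps followed by a digit, a p or an a, without the rps6k kinases, and the counts of a gene's transcripts were summed. The rule found 80 of the 42609 genes of the count tables, 32 of the small and 48 of the large ribosomal subunit, spread over 22 linkage groups. In 69 of them, 25 of the small and 44 of the large subunit, counts were high enough to be tested among 8425 genes. The other 11 are accounted for further on. Among these 11, rps19bp1 meets the symbol rule but encodes a protein that binds a ribosomal protein.

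A ribosome is built from ribosomal RNA and about as many copies of each protein, with the decoding of mRNA on the small subunit and the joining of amino acids on the large one. Because the proteins are needed in like amounts, their genes are usually expressed together. In vertebrates their mRNAs begin with a run of pyrimidines, the 5′ TOP motif, through which the growth regulator mTORC1 and the protein LARP1 control their translation and stability. In muscle the supply of ribosomes is a limit on protein synthesis and growth. Fish underwent an extra genome duplication, and a few ribosomal proteins have additional copies or like proteins.

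Fast muscle, the white tissue that drives bursts of swimming, came from 12 females at 5 months of age, with 6 wild fish (W53, W63, W66, W68, W70 and W72) and 6 fish of the first generation undergoing domestication (D53, D63, D66, D68, D70 and D72). The treatment label of the samples names only the group, as Wild or Domestication, and no mutation is given for either group. Fish of the same number are genetically paired, each domesticated fish with its wild progenitor. Each library is 1 piece of muscle from 1 fish. Every domesticated fish is of the first generation and every wild fish is a progenitor, so generation and domestication cannot be told apart. Directional libraries were prepared after depletion of ribosomal RNA, with no poly(A) selection, and all were sequenced on 1 lane.

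The gene counts per library were 3395622 to 8472454 in wild fish and 4312367 to 8478988 in domesticated fish. Levels are given as CPM, the count of a gene in 1000000 counts of the tested genes, after the library's total was adjusted by a TMM factor for unequal RNA composition. Composition did differ, since the 10 most abundant genes held 29.5% to 51.8% of the gene counts in wild and 40.3% to 50.8% in domesticated fish, and the TMM factors ran from 0.678 to 1.81 and from 0.614 to 1.29. The fast muscle markers that were found (5, among them the creatine kinases ckma and ckmb and the myosin light chain mylpfa) summed to 49369 to 218627 CPM in wild and 112793 to 183439 CPM in domesticated libraries. Markers of slow muscle summed to 11.3 to 99.0 and 74.5 to 437.7 CPM. Most of this sum was the myoglobin gene mb, at 10.6 to 96.6 and 71.4 to 429 CPM. The other slow marker tested, myl2b, ran from 0.42 to 14.7 and from 0.45 to 18.8 CPM. Their log2 fold changes, domesticated over wild, were 2.14 and -0.24. CPM is not corrected for transcript length, so values of different genes below are not an order of their levels.

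Whether a gene could be measured went with its number of annotated transcripts. All 68 ribosomal protein genes with 1 annotated transcript passed the filter on low counts. Of the 12 genes with 2 or 3 annotated transcripts, rpl10a passed and 11 did not. These 11 were rpl9, rpl12, rpl13, rpl28, rps2, rps14, rps19bp1, rps24, rps27.2, rps27l and rps28. None of them had more than 18 counts in a library or 48 counts over all 12. For rpl28 and rps2, proteins of the large and the small subunit, the count was 0 in every library, which allows up to 3 counts, or 0.336 to 0.665 CPM depending on the library. The tables count reads per transcript, 13.4% of the aligned reads on average were ambiguous, and the sources used here do not say how a read shared by transcripts of 1 gene was counted. Low counts of these 11 genes can therefore not be read as low expression. Member values below describe the other 69, except where a fit with no filter on low counts is named. The same limit holds for rpl10a and for genes outside the members with more than 1 annotated transcript. A marker given below as at 0 is likewise not read as absent.

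Of 79 core ribosomal proteins listed, 73 had a gene under the rule. The other 6 had none. The protein S30 is an example that is made under another gene name, since faua encodes it joined to a ubiquitin-like protein. Over the 12 libraries faua ran from 213 to 681 CPM.

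Together the ribosomal protein genes held a few percent of the gene counts in each library. In wild fish their share was lowest at 2.72% in W72, had a median of 3.76% and was highest at 6.31% in W66, with a mean of 4.06% ± 1.29 (SD, n = 6). In domesticated fish it was lowest at 2.13% in D63, had a median of 3.31% and was highest at 4.25% in D68, with a mean of 3.26% ± 0.902 (SD, n = 6). The groups overlapped, and the difference of -0.807 percentage points was smaller than the SD of either group. These SDs leave out the pairing. In pair 68 the share was higher in the domesticated fish (4.25% against 3.31%), and in every other pair it was lower. The gap was largest in pair 66 (2.54% against 6.31%) and smallest in pair 72 (2.71% against 2.72%). When the total excluded the 10 most abundant genes, the share was 5.22% to 8.96% in wild and 4.32% to 7.37% in domesticated fish. On the TMM scale the summed CPM of the members was 35485 ± 9255 in wild and 36619 ± 4078 in domesticated fish (SD, n = 6 each), so the direction of the group difference depended on the scaling. In a bulk sample, fewer cells of a type and less RNA per cell cannot be told apart.

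No ribosomal protein gene passed the test between domesticated and wild fish (0 of 69; limma, Benjamini-Hochberg adjusted p under 0.05), where 13.2% of all genes tested were called, 6.69% as higher and 6.5% as lower in domesticated fish. At an unadjusted p under 0.05 there was 1 member, rpl7l1, against 29.9% of all genes, and with voom weights none (0) passed at either level. The log2 fold changes, domesticated over wild, ran from -0.52 for rpl10a to 0.55 for rpl7l1. Of the 69, 63 (91.3%) were within 0.25 of 0 on the log2 scale, against 28.8% of all genes tested. Their standard errors were 0.22 to 0.39, with a median of 0.254 against 0.336 for all genes. The members also had far higher counts. Their median of mean CPM was 445 against 9.40 for all genes tested, and 92.8% against 7.70% had at least 100 CPM. Genes of like counts were not compared. The part of count level in these differences, and in those of the intervals below, was not tested.

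The intervals give the size of a group difference that these 12 fish leave possible. The 95% interval of the fold change lay inside a 2-fold change in either direction for 65 of the 69 members, against 33.9% of all genes. It reached past 2-fold for rpl7l1, rplp0, rpl10a and rpl39, with bounds as far as -1.27 and 1.13 on the log2 scale. In all 69 genes the ranges of the wild and the domesticated fish overlapped, and in 5.01% of all genes tested they did not.

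**Figure D1:**
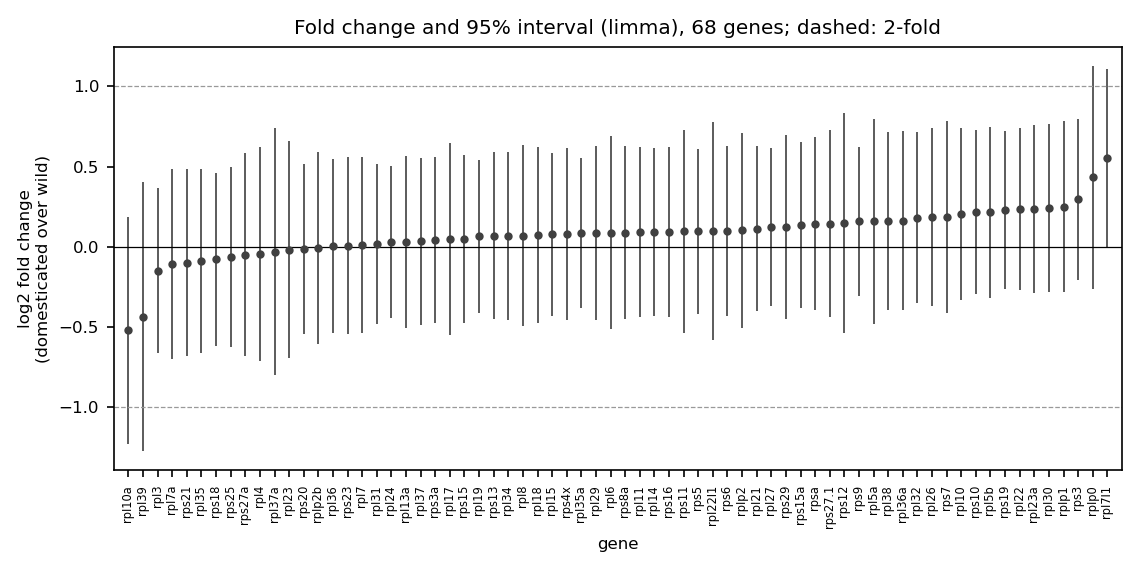
Log2 fold change of domesticated over wild fish (vertical axis) with its 95% interval from limma for 68 of the 69 tested ribosomal protein genes (horizontal axis, from the lowest to the highest), with dashed lines at a 2-fold change. All intervals but that of rpl7l1 cross 0, and 4 reach past a dashed line.

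The fold changes leaned to the domesticated side without any gene passing the test. Their median was 0.09 against -0.02 over all genes, with 55 above and 14 below 0. The median was 0.10 in the small subunit (20 of 25 above 0) and 0.08 in the large subunit (35 of 44 above 0). This lean rested on single fish and on the scaling. Without W72 there were 28 above and 41 below 0, without W70 there were 35 and 34, without W63 there were 66 and 3, with no filter on low counts there were 73 and 5, and with library totals in place of TMM scaling there were 2 above and 67 below, while the median of all genes moved to -0.42 and that of the members to -0.32. Relative to the median of all genes, the members stood at 0.11 on the log2 scale under both scalings, and at 0.01 without W72, 0.22 without W63 and 0.36 with no filter. In 5 genes (rpl7l1, rps9, rps3a, rps19 and rpl22) the domesticated fish was the higher one in 5 of the 6 pairs. In no gene (0) was it the higher one in fewer than 2 pairs. The share over all genes is not given here, so these counts are not read as a trait of the members.

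The ribosomal protein genes rose and fell together from fish to fish. Each gene's log2 CPM was correlated with the median of the other members over the 12 libraries after the group means were taken off. The median of the members is called the common profile. For its values in single libraries, given below, each gene's mean over the 12 libraries was taken off and the group means were kept. The correlation had a median of 0.85 over the 69 genes, with quartiles of 0.70 and 0.91, and was at least 0.7 in 51 genes (73.9%) and at least 0.9 in 22. Outside the members, 91 genes (1.09%) reached 0.7. Over pairs of members the median correlation was 0.70, and over pairs of all genes tested it was -0.003, with quartiles of -0.26 and 0.26. These are descriptions over 12 points that share library, depth and scaling. The members also had far higher counts than most genes tested, and genes of like counts were not compared. The part of count level in these differences of correlation was not tested. A first axis of variation held 57.7% of the variance of the members, the second 22.3% and the third 9.92%.

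**Figure D2:**
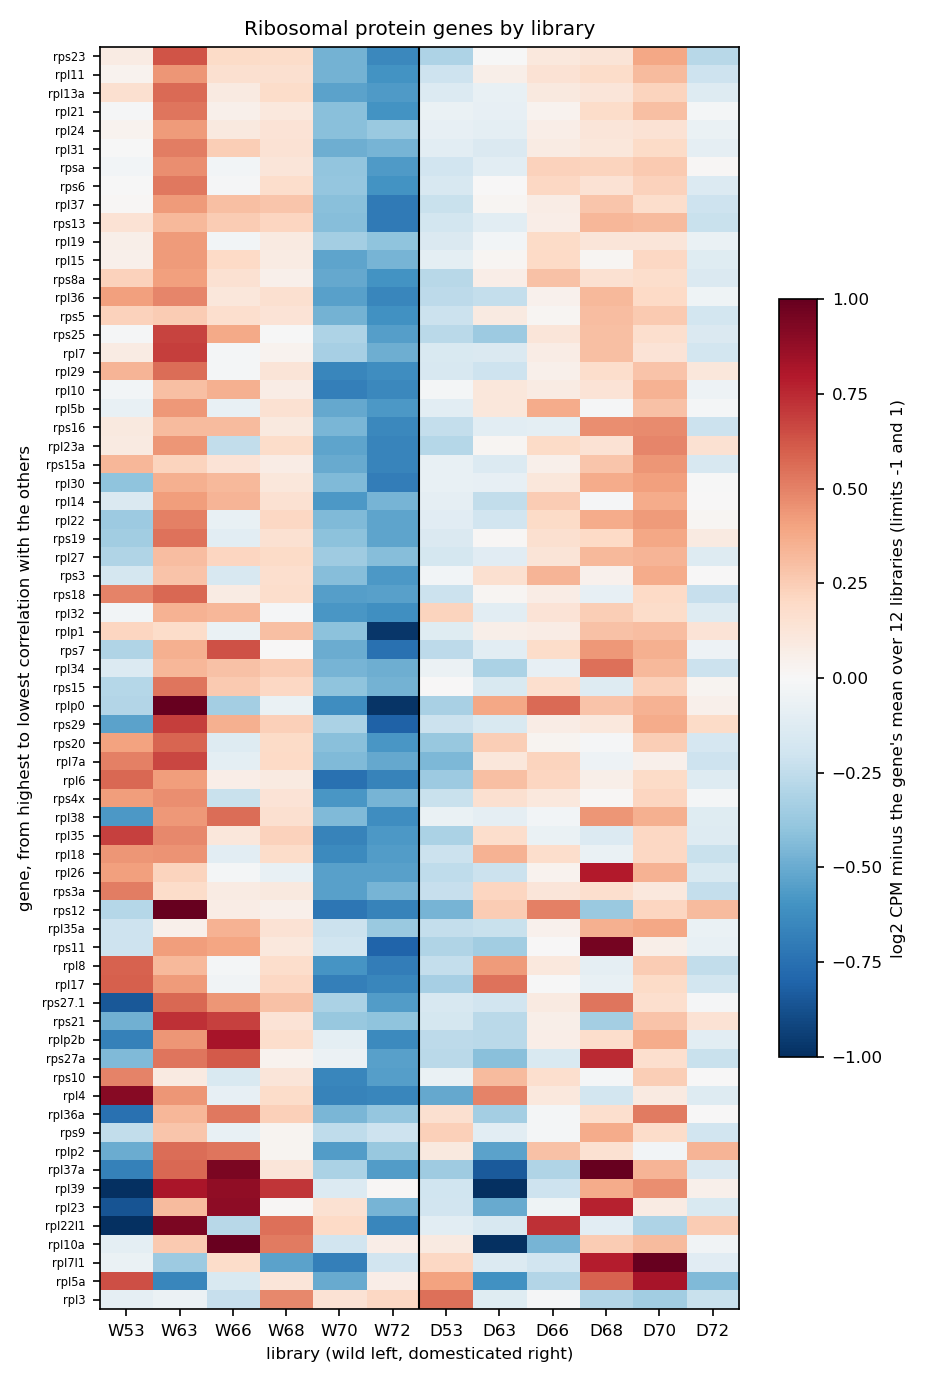
Log2 CPM minus the gene's mean over the 12 libraries (colour, limits at -1 and 1) for 68 of the 69 tested ribosomal protein genes, from the highest to the lowest correlation with the other members, in 6 wild and 6 domesticated libraries. Most genes are above their mean in W63, W68 and D70 and below it in W70, W72 and D53. The lowest 7 have a correlation under 0.5, though some of them, such as rpl39, follow this pattern in most of these libraries.

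The common profile separated individual fish and not the groups. It was highest in W63, at 0.43 on the log2 scale, with 66 of the 69 genes above their own mean there. It was lowest in W72, at -0.57, with 65 genes below their mean, and nearly as low in W70, at -0.46, with 66 below. W53, W66 and W68 stood at -0.01, 0.12 and 0.15. Among domesticated fish it was highest in D70, at 0.26, with 66 genes above their mean, and lowest in D53, at -0.18, with 60 below. D63, D66, D68 and D72 stood at -0.10, 0.09, 0.18 and -0.12. The span was 2.00-fold among wild and 1.36-fold among domesticated fish, and the domesticated fish was the higher one in 3 of the 6 pairs.

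Several measures of the libraries were set beside the common profile, with group means taken off. Its correlation over the 12 libraries was -0.44 with the log2 TMM factor, 0.06 with the log2 gene counts, 0.18 with the share of the 10 most abundant genes and -0.25 with the share of reads outside annotated features. The log2 summed CPM of the fast muscle markers correlated with it by 0.41. The erythrocyte markers, of which alas2, rhag and ank1a were all called as higher in domesticated fish and slc4a1a was at 0, summed to 105 to 602 CPM in wild and 334 to 1107 CPM in domesticated fish and correlated by 0.60. Nearly all of this sum was ank1a, which correlated by 0.61, where rhag and alas2 correlated by -0.28 and -0.08. The call held in 20 of 20 alternatives of the fit for rhag, in 13 for ank1a and in 8 for alas2. Markers of proliferating cells, with mki67 at 0, summed to 15.3 to 32.9 and 11.5 to 33.5 CPM and correlated by -0.60. Of the 3 tested, pcna, at 8.81 to 19.3 and 6.86 to 19.3 CPM, correlated by -0.72. The other tested markers, mcm2 and top2a, correlated by -0.15 and -0.16. Leukocyte markers, with csf1ra and spi1b at 0, summed to 935 to 2661 and 1332 to 4617 CPM and correlated by 0.25. Most of this sum was lcp1 (0.31), and cd74a and coro1a correlated by -0.15 and -0.21. The log2 fold change, domesticated over wild, was 0.89 for lcp1, but -0.57 for cd74a and -0.61 for coro1a. None (0) of these leukocyte markers was called. Fibroblast markers, with col1a1a at 0, summed to 268 to 7102 and 3897 to 22002 CPM, nearly all of it col1a2, and correlated by -0.12. The 1 fibroblast marker that was called, fbln1, which has 2 annotated transcripts, was lower in domesticated fish (log2 fold change -1.87, adjusted p = 0.0242, limma). It was low, at 2.02 to 7.91 CPM in wild and 0.22 to 1.74 CPM in domesticated fish. The other tested fibroblast markers, col1a2, dcn and pdgfra, went the other way and were not called. Their log2 fold changes were 2.68, 1.35 and 0.80 (adjusted p = 0.0603, 0.0626 and 0.113, limma). The part of these measures in the joint movement was not tested.

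A few genes followed the common profile almost exactly. The large subunit protein gene rpl11, whose product binds 5S rRNA, correlated with it by 0.98. Its level was 412, 669 and 848 CPM (lowest, median and highest) in wild and 540, 670 and 779 CPM in domesticated fish. The groups overlapped with near equal medians, and the log2 fold change was 0.09 ± 0.25 (SE; adjusted p = 0.841, limma).

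For rpl24, a protein at the bridge between the subunits, the level was 394, 552 and 708 CPM in wild and 492, 527 and 583 CPM in domesticated fish. The domesticated range lay inside the wild one, as W70 and W72 were the lowest and W63 the highest of all fish. In rps23, a protein at the decoding centre, it was 294, 504 and 709 CPM in wild and 371, 476 and 599 CPM in domesticated fish. The correlation with the common profile was 0.98 for both genes. For rps6, the protein phosphorylated by the S6 kinases downstream of mTORC1, wild fish were at 533, 803 and 1166 CPM and domesticated fish at 724, 853 and 950 CPM, and the correlation was 0.97. For rpsa, a small subunit protein also known as a laminin receptor, wild fish were at 821, 1194 and 1675 CPM and domesticated fish at 1067, 1324 and 1460 CPM. Again the wild fish held both extremes, and the log2 fold change was 0.14 ± 0.25 (SE; adjusted p = 0.748, limma).

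Of other small subunit proteins, rps3 and rps19 had correlations of 0.89 and 0.90 with the profile and rps9 a lower one. For rps3, which lies at the mRNA entry, wild fish were at 465, 614 and 840 CPM and domesticated fish at 677, 741 and 894 CPM. The log2 fold change was 0.30 ± 0.23 (SE; adjusted p = 0.426), which is close to its error. For rps19, the protein most often mutated in human Diamond-Blackfan anaemia, wild fish were at 191, 236 and 400 CPM and domesticated fish at 249, 300 and 359 CPM, with a log2 fold change of 0.23 ± 0.23 (SE; adjusted p = 0.538). The domesticated fish was the higher one in 5 of 6 pairs, and the ranges overlapped. For rps9, another protein of the mRNA entry, wild fish were at 466, 506 and 675 CPM and domesticated fish at 487, 591 and 718 CPM. Its correlation with the profile was 0.62, and its own SDs were 0.21 and 0.22 on the log2 scale.

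Among large subunit proteins, rpl10, which is added late in assembly before the subunits join, was at 380, 620 and 780 CPM in wild and 587, 652 and 773 CPM in domesticated fish. Its correlation was 0.91 and its log2 fold change 0.20 ± 0.25 (SE; adjusted p = 0.621). The level of rpl19 was 424, 568 and 754 CPM in wild and 509, 580 and 641 CPM in domesticated fish, with a correlation of 0.95. For rpl30 it was 214, 318 and 443 CPM in wild and 326, 359 and 458 CPM in domesticated fish. In each of these 3 genes the lowest values were those of wild fish.

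The stalk proteins, which recruit translation factors to the large subunit, moved unequally. For rplp0, the base of the stalk, wild fish were at 688, 1090 and 2702 CPM and domesticated fish at 1081, 1684 and 2004 CPM. W63 was far above the other wild fish, which were at 688 to 1296 CPM, and the groups overlapped with and without it. The log2 fold change was 0.43 ± 0.33 (SE; 95% interval -0.26 to 1.13; adjusted p = 0.397, limma) and the correlation with the common profile 0.84. For rplp1 wild fish were at 183, 377 and 443 CPM and domesticated fish at 332, 388 and 446 CPM. Both its group medians and its highest values were close together, and only W72 and W70 set the wild range apart.

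The partner of rplp1 in the stalk has 2 genes, rplp2 and rplp2b. For rplp2 wild fish were at 628, 825 and 1358 CPM and domesticated fish at 637, 1006 and 1169 CPM, and for rplp2b wild fish were at 207, 341 and 586 CPM and domesticated fish at 274, 326 and 426 CPM. Their ratio does not depend on the scaling of the libraries. There were 29.96, 36.34 and 49.08 counts of rplp2b per 100 of rplp2 in wild fish and 26.2, 33.5 and 47.1 in domesticated fish. The ranges of the ratio nearly coincided. Correlations with the common profile were 0.62 for rplp2 and 0.67 for rplp2b, and within the domesticated fish they were -0.32 and 0.73.

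In 7 genes the correlation with the common profile was under 0.5. These were rpl3, rpl5a, rpl7l1, rpl10a, rpl22l1, rpl23 and rpl39, all of the large subunit. Of the 7, 3 have another copy or a like protein among the members that stayed close to the profile. The 5 tested members with a mean under 100 CPM were all among them (rpl5a, rpl7l1, rpl10a, rpl22l1 and rpl39), so the gene's own counting error is larger there, and its part was not tested.

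The gene rpl3 was the 1 member with a correlation below 0, at -0.39. Its protein lies next to the catalytic centre of the large subunit, and in mammals striated muscle carries a muscle-restricted like protein, RPL3L, beside it. Wild fish were at 591 (W66), 715 and 969 CPM (W68), and domesticated fish at 546 (D70), 617 and 1014 CPM (D53). The groups overlapped and D53 was above all others. The log2 fold change was -0.15 ± 0.24 (SE; 95% interval -0.66 to 0.37; adjusted p = 0.726, limma).

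Its high values fell mostly in libraries where the other genes were low. In D53, W72 and W70, the 3 libraries with the lowest common profile, rpl3 was at 1014, 800 and 765 CPM. In W63, D70 and D68, the 3 with the highest, it was at 666, 546 and 566 CPM. W68 was an exception, with a profile above 0 and rpl3 at 969 CPM. The correlation was -0.36 within wild and -0.75 within domesticated fish, and it stayed between -0.59 and -0.32 when each library in turn was left out. With library totals in place of TMM scaling it was 0.55, so its sign depended on the scaling.

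A ratio of counts is free of this scaling, but rpl24 itself follows the common profile, so a ratio to it shows unequal change of the 2 genes and not the direction of rpl3. There were 94.1, 144 and 196 counts of rpl3 per 100 counts of rpl24 in wild fish and 93.6, 121 and 203 in domesticated fish. D53, W72 and W70 had the highest values, 203, 196 and 194, and D70, W63 and D68 the lowest, 93.6, 94.1 and 98.6. Against rpl4 the ratio was 35.1, 75.03 and 128 in wild and 45.9, 65.1 and 147 in domesticated fish. The highest value was again that of D53, with the other domesticated fish at 45.9 to 65.9, while the lowest were those of W53 and D63.

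**Figure D3:**
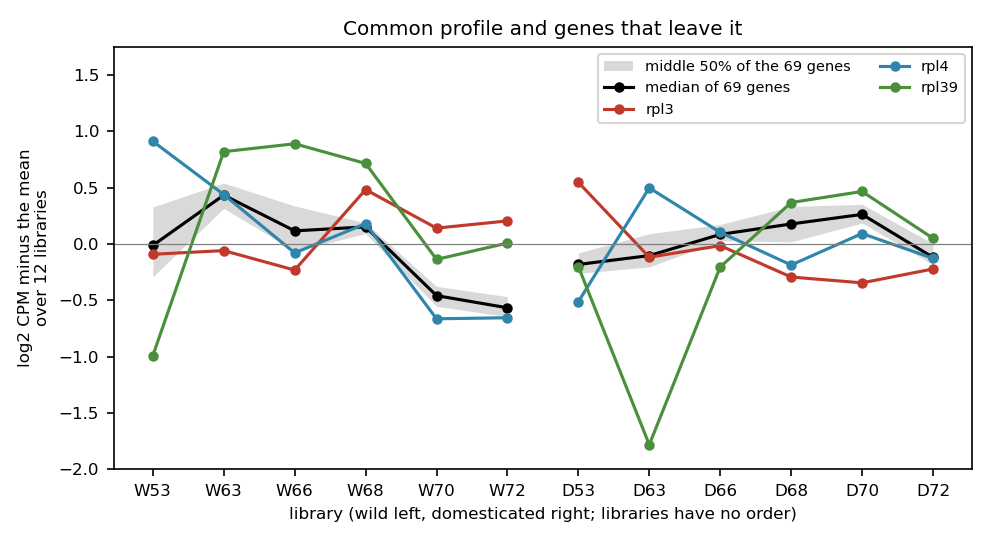
Log2 CPM minus the gene's mean over 12 libraries (vertical axis) in each library (horizontal axis) for the median of the 69 members, the middle 50% of them (grey) and rpl3, rpl4 and rpl39; lines join libraries of a group for the eye, and libraries have no order. The median is lowest in W70 and W72, where rpl3 is above its own mean, and rpl4 and rpl39 part in opposite directions in W53 and D63.

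Among the 8356 tested genes that are no members, those with the profile most like that of rpl3 over the 12 libraries (group means taken off) were sumf1, gra, aimp1b, leprot and an unnamed protein-coding gene, LOC100699077, with correlations of 0.91, 0.90, 0.89, 0.89 and 0.89. Those most opposed were oat, which encodes ornithine aminotransferase, tomm40l and pitrm1, at -0.92, -0.91 and -0.87. They were picked as the highest and lowest of all genes, so that high values carry no weight by themselves.

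The protein L5 forms a complex with 5S rRNA and L11, and it has 2 genes here. For rpl5b wild fish were at 620, 875 and 1247 CPM and domesticated fish at 858, 957 and 1197 CPM, and the correlation with the common profile was 0.91. For rpl5a wild fish were at 36.7, 56.1 and 90.4 CPM and domesticated fish at 37.8, 61.9 and 102 CPM, and the correlation was 0.11. The fish differed more in the minor copy than in the major one. There were 2.95 (W63), 6.22 and 10.3 (W53) counts of rpl5a per 100 of rpl5b in wild fish and 3.79 (D63), 6.80 and 9.51 (D68) in domesticated fish. The ranges overlapped almost wholly, and the log2 fold changes were 0.16 ± 0.30 for rpl5a and 0.22 ± 0.25 for rpl5b (SE; adjusted p = 0.762 and 0.599). The correlation of rpl5a was -0.02 to 0.42 with each library in turn left out, highest without W63, and 0.76 with library totals.

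The like protein of L22, rpl22l1, also left its partner. In mice RPL22 represses the gene of its like protein. For rpl22 wild fish were at 137, 171 and 281 CPM and domesticated fish at 173, 214 and 266 CPM, with a correlation of 0.90 and a log2 fold change of 0.23 ± 0.24 (SE; adjusted p = 0.545). For rpl22l1 wild fish were at 15.2 (W53), 31.3 and 61.0 CPM (W63) and domesticated fish at 25.6, 29.5 and 52.6 CPM, with a correlation of 0.38. Per 100 counts of rpl22 there were 9.91, 17.5 and 24.96 of rpl22l1 in wild and 9.63, 16.2 and 23.2 in domesticated fish. The ratio had nearly the same range in both groups.

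The gene rpl7l1 had the largest fold change of the members. In human cells its protein is found on precursors of the large subunit, where L7 binds later. Wild fish were at 14.4, 19.1 and 26.3 CPM, and domesticated fish at 20.3, 24.1 and 50.04 CPM. Every domesticated fish was above the wild median, with D70 at the top, and the ranges overlapped. The log2 fold change was 0.55 ± 0.26 (SE; 95% interval 0.00 to 1.11), and it did not pass the test (adjusted p = 0.167, limma). The domesticated fish was the higher one in 5 of 6 pairs. The unadjusted p was 0.0498, and 0.0859 with the replicate block for the pairs. For rpl7 itself, a core protein, wild fish were at 752, 1062 and 1710 CPM and domesticated fish at 930, 1036 and 1305 CPM, with a log2 fold change of 0.01 ± 0.26. Per 100 counts of rpl7 there were 1.05, 1.85 and 2.70 of rpl7l1 in wild and 1.82, 2.56 and 4.30 in domesticated fish, again with overlap.

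**Figure D4:**
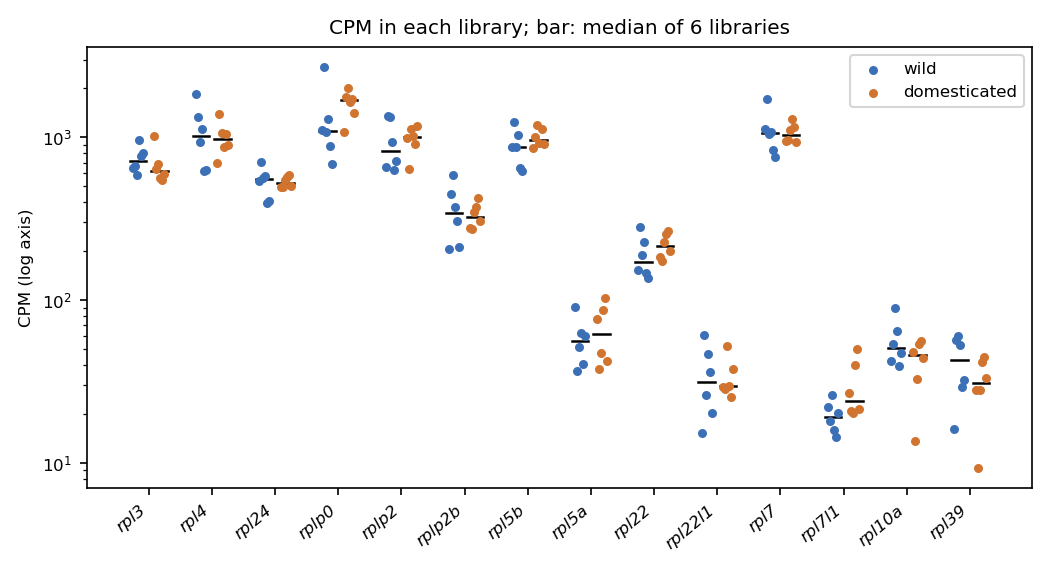
CPM on a log axis (vertical) in each of the 6 wild (blue) and 6 domesticated (orange) libraries for 14 ribosomal protein genes (horizontal axis), with a bar at each group's median. The groups overlap in every gene, W63 stands apart in rplp0, D53 in rpl3, and D63 is lowest in rpl10a and rpl39.

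The remaining genes of low correlation were lowest of the domesticated fish in D63. For rpl10a, a protein of the stalk at the exit site for tRNA and the 1 tested member with more than 1 transcript, wild fish were at 39.6, 50.7 and 89.7 CPM and domesticated fish at 13.6 (D63), 46.0 and 56.2 CPM. For rpl39, a very small protein in the wall of the exit tunnel, wild fish were at 16.2 (W53), 42.8 and 60.0 CPM and domesticated fish at 9.30 (D63), 30.8 and 44.7 CPM. D63 was the lowest of all 12 libraries in both. The log2 fold changes were -0.52 ± 0.33 and -0.44 ± 0.39 (SE; adjusted p = 0.316 and 0.493), and neither passed the test. For rpl23, at the interface of the subunits, wild fish were at 434 (W53), 838 and 1469 CPM (W66) and domesticated fish at 557 (D63), 738 and 1343 CPM (D68), with a log2 fold change of -0.02 ± 0.32.

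On the second axis of variation W53 (0.66) and D63 (0.50) stood opposite W66 (-0.35) and D68 (-0.28). With a limit of 0.25 on the log2 scale, chosen after the values were seen, 11 genes were above the common profile in both W53 and D63. They included rpl4, rpl6, rpl8, rpl17, rpl18, rpl35, rps3a, rps4x, rps10 and rps20. In both W53 and D63, 5 genes were below the profile by the same limit, namely rpl23, rpl37a, rpl39, rplp2 and rps27a. The gene rpl10a was below it in D63 (-1.62) but close to it in W53 (-0.08).

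The most extreme pair were 2 proteins of the exit tunnel. The gene rpl4 was at 0.93 in W53 and 0.60 in D63 relative to the common profile on the log2 scale, and rpl39 was at -0.98 and -1.68. The level of rpl4 was 622, 1025 and 1856 CPM in wild and 691, 977 and 1393 CPM in domesticated fish, with W53 and D63 the highest of their groups. For rpl17, another protein of the tunnel, wild fish were at 314, 538 and 763 CPM and domesticated fish at 402, 492 and 733 CPM. For rpl37a, a small zinc-binding protein, wild fish were at 128, 194 and 394 CPM and domesticated fish at 114 (D63), 176 and 471 CPM (D68). For rps27a, which is made as a fusion with ubiquitin, wild fish were at 733, 1059 and 1633 CPM and domesticated fish at 800, 938 and 1792 CPM. For rpl4, rpl17, rpl37a and rps27a the log2 fold changes of -0.04, 0.05, -0.03 and -0.05 were smaller than their errors.

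The second axis moved with a measure of the libraries. W53 and D63 had the smallest share of reads outside annotated features of their groups, 7.93% and 6.97%, where W66 had 14.3% and D68 13.7%. Over the 12 libraries, with group means taken off, the axis correlated with this share by -0.75, with the log2 gene counts by 0.51 and with the log2 TMM factor by -0.53. Over all 8425 genes tested, the deviations of W53 and D63 from their group means correlated by 0.19, where other combinations of a wild and a domesticated library ran from -0.29 to 0.25. The part of library quality in this axis was not tested.

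The remaining genes named as copies or like forms stayed closer to the profile. For rps8a wild fish were at 485, 785 and 971 CPM and domesticated fish at 604, 790 and 896 CPM, with a correlation of 0.93. For rps27.1, a zinc finger protein of the small subunit, wild fish were at 79.9 (W53), 146 and 214 CPM and domesticated fish at 126, 148 and 209 CPM, with a correlation of 0.70, while rps27.2 and rps27l were among the genes too low to test. For rps12, in the beak of the small subunit, wild fish were at 382, 587 and 1349 CPM and domesticated fish at 458, 742 and 896 CPM. W63 was far above the other wild fish, at 382 to 665 CPM, as it was in rplp0. Among the symbols that end in a, rpl7a, rpl13a, rpl23a, rpl35a, rpl36a, rpl37a, rps3a, rps15a and rps27a name separate proteins and no copies.

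Wild fish differed more from each other than domesticated fish did on the TMM scale. The SD of log2 CPM was larger among wild fish in 59 of the 69 genes (85.5%), against 59.1% of all genes tested. Its median was 0.45 in wild and 0.24 in domesticated fish for the members, and 0.59 and 0.52 for all genes. The common profile alone had SDs of 0.38 and 0.18. Because the members move together, the 59 genes are not 59 separate observations. The count was 59 to 64 with each library in turn left out, and with library totals in place of TMM scaling it was 37 (53.6%), against 61.8% of all genes, so it depended on the scaling. The 10 genes with the larger SD among domesticated fish included rpl3, rpl5a, rpl7l1, rpl10a, rpl37a and rpl39.

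**Figure D5:**
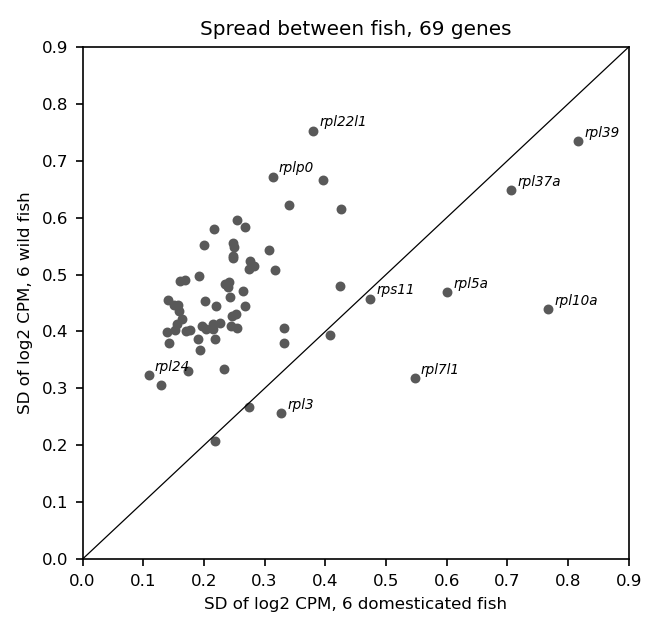
SD of log2 CPM among 6 wild fish (vertical axis) against that among 6 domesticated fish (horizontal axis) for the 69 tested ribosomal protein genes, with a line of equality. Most points, 59 of 69, lie above the line, and rpl3, rpl5a, rpl7l1, rpl10a, rpl37a and rpl39 lie below it.

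Members that hold small nucleolar RNA genes moved like the rest. Such RNAs guide the modification of ribosomal RNA, and many are encoded in introns of ribosomal protein genes. In the RefSeq annotation of O_niloticus_UMD_NMBU, 61 of 179 annotated snoRNA genes lay inside 28 members, with 4 each in rpl4, rpl7a, rpl17 and rps7. The 25 tested hosts had a median correlation of 0.84 with the common profile, and the other tested members 0.85.

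Of the genes outside the rule, faua moved with the members, with a correlation of 0.69. Its log2 fold change was 0.53 (adjusted p = 0.209). The 5 genes with the highest correlation were LOC100700449, an unnamed protein-coding gene (0.95), slc1a5, a carrier of neutral amino acids (0.88), gcat, an enzyme of threonine and glycine breakdown (0.88), calr3b, of the calreticulin family (0.88), and LOC100699101, an unnamed long non-coding RNA gene (0.88). Of these 5, gcat passed the test between the groups. It was at 2.46, 7.76 and 28.8 CPM in wild and 12.99, 39.1 and 48.2 CPM in domesticated fish, with overlap, and its log2 fold change was 2.18 ± 0.50 (SE; adjusted p = 0.0146, limma). This call held in all 20 alternatives of the fit.

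Other mRNAs with a 5′ TOP motif, mostly of translation factors, shared part of the movement. Of 18 tested, none (0) was called in either direction with or without voom weights, none (0) had an unadjusted p under 0.05, the median correlation with the members was 0.46, and 7 reached 0.5. Among the closest were eef1b2, the exchange factor of elongation factor 1 (0.84) and tpt1 (0.74). For eef1b2 the log2 fold change was -0.01 and for tpt1 0.28, and neither passed the test (adjusted p = 0.976 and 0.560).

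Genes of ribosome assembly had little of it. Of 73 tested, 0 were called as higher and 1 as lower in domesticated fish, urb1, a factor of early large subunit precursors, by -1.03 on the log2 scale (adjusted p = 0.0429). Over all genes 6.69% were higher and 6.5% lower, and at an unadjusted p under 0.05 there were 4 of the 73 against 29.9% of all genes. The call of urb1 held in 7 of 20 alternatives of the fit. In the list 0 genes were called with voom weights (urb1 adjusted p = 0.0558) and 2 with the replicate block. Their median correlation with the members was 0.04. Of 16 genes of RNA polymerases I and III, which transcribe ribosomal and transfer RNA, 0 were called with or without voom weights, 3 had an unadjusted p under 0.05, and the median correlation was -0.22. Of 12 genes of ribosome surveillance and decay, 6 had an unadjusted p under 0.05 and 1 was called, against 29.9% and 13.2% of all genes. It was pelo, which frees stalled ribosomes, higher by 1.105 on the log2 scale (adjusted p = 0.0313), a call that held in 13 of 20 alternatives and had an adjusted p of 0.0551 with the replicate block.

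In mTORC1 and LARP1 signalling, 1 of 21 tested genes rose and 3 fell in domesticated fish, where 6.69% and 6.5% of all genes did. At an unadjusted p under 0.05 there were 8 of the 21, against 29.9% of all genes. The list had a median correlation of -0.03. The cap-binding protein gene eif4eb rose by 1.02 on the log2 scale (adjusted p = 0.0302). The genes that fell were ddit4, at 16.9 to 237 CPM in wild and 5.38 to 57.8 CPM in domesticated fish, sesn1, at 16.9 to 33.2 and 3.46 to 16.3 CPM, and the Rag GTPase rragcb. The proteins DDIT4 and SESN1 are known as inhibitors of mTORC1. The log2 fold changes were -2.35, -1.29 and -1.03 (adjusted p = 0.0249, 0.0221 and 0.0434). The ranges of sesn1, which has 2 annotated transcripts, did not overlap. In the same order, the calls held in 16 of 20 alternatives of the fit, in 16 of 19 and in 6 of 20, and that of eif4eb held in 13 of 20. With the replicate block for the pairs, the adjusted p of rragcb was 0.081. The correlations of ddit4, sesn1, rragcb and eif4eb with the members were 0.63, 0.45, 0.06 and 0.28.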

How the data were processed

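RNA-seq of fast muscle from 6 wild and 6 domesticated females was used. In the files as the authors deposited them, each of 80392 annotated transcripts has a whole-number count of reads that was not normalized. The 5 summary lines were left out (on average 11.2% of the aligned reads outside features, 13.4% ambiguous and 51.5% with more than 1 alignment). The submitters' processing notes name Trimmomatic 0.33, STAR, HTSeq and edgeR. Settings, a genome build for the counts and the use of edgeR were not stated in the sources used here. The paper's methods name the O_niloticus_UMD_NMBU annotation for its own analysis of circular RNAs in these libraries. The count tables are separated by tabs under a comma-separated name and could not be read as counts by the unit check in use, so limma on log2 values was used in place of a count test.

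Transcript counts were summed per gene, and symbols were taken from the RefSeq table of O_niloticus_UMD_NMBU, which held 42607 of the 42609 genes. Genes with 10 counts, scaled to the median library, in at least 6 libraries and 15 counts in all were tested (8425). Log2 CPM was computed here with a pseudocount of 0.5 and TMM-scaled totals (trims of 30% and 5%), and understates changes of low genes. It was tested with limma 3.58.1 in R 4.3.3 (trend, robust estimation, group as the single term), two-sided, with Benjamini-Hochberg adjustment over all genes and a threshold of 0.05. The fit was tested on simulated data. Tables were handled with Python 3.11.15 and pandas 2.3.3.

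The members and gene lists were chosen with earlier results of these data known. Named genes are the paralogs and like proteins, the 5 members of lowest correlation, the 5 other genes most like the members, called genes of the lists (at most 4 in each direction), and 20 members chosen by role or movement after their values were seen. A level per length was planned for the naming rule but no transcript lengths were used. The numbers pair the samples, since the labels state genetic pairs. For pairs 53, 63, 66, 68, 70 and 72, the correlation of the deviations of both libraries from their group means over all genes was 0.21, 0.12, 0.046, -0.10, -0.089 and 0.046. The fit has no block. Alternatives were other scalings, filters, pseudocounts and weights, the replicate block, genes with 1 transcript and each library left out. The floor for a count of 0 covers counting error only, since reads carry no molecular identifiers. Copies of near-identical sequence may share reads and are uncertain, and no sequence was compared. Values of some genes are not reported here.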

Additional observations from a re-analysis of the deposited data

Results flagged for a closer look

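In 40 quantities, each in both groups (80 groups of 6 fish), a single fish far from the other 5 was looked for by the gap to its nearest neighbour relative to the whole range. Chance alone marks about 1 in 20 groups, and 6 were marked. D53 stood apart in rpl3, with 1014 CPM where the other domesticated fish had 546 to 687 CPM. It also stood apart in the count ratios of rpl3, with 147 counts per 100 of rpl4 against 45.9 to 65.9, and with 203 counts per 100 of rpl24 against 93.6 to 130.0. These 3 values share the counts of rpl3 in 1 library. W63 stood apart in rplp0, with 2702 CPM against 688 to 1296 CPM in the other wild fish, and in rps12, with 1349 CPM against 382 to 665 CPM. D68 stood apart in rpl23, with 1343 CPM against 557 to 836 CPM in the other domesticated fish.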

How the results depend on the processing

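In each of 20 alternatives, 0 members were called, and the lowest adjusted p of a member was 0.108 (without W63) to 0.296. The replicate block for the pairing called 0 members with a lowest adjusted p of 0.232, and with it no member (0) had an unadjusted p under 0.05, rpl7l1 moving from 0.0498 to 0.0859. Over all genes, library totals called 87 higher in place of 564, scaling to the ribosomal protein genes (chosen after seeing the data) 289, and leaving out each library 321 to 730. For genes called lower the values were 548, with no filter 352, and 307 to 643 with each library left out. Library totals move every gene by the same -0.41 on the log2 scale, so that relative to all genes no gene changes, and by this shift the log2 fold changes turned to -0.31 for rpl22l1, -0.24 for rpl5a, -0.19 for rpl5b, -0.30 for rplp2, -0.32 for rps8a, -0.26 for rps27.1, -0.17 for rpl22 and -0.39 for rpl7. That of rplp2b turned to 0.018 with median-of-ratios factors and 0.14 with no filter, and that of rpl7 to -0.01 in genes with 1 transcript and -0.064 with scaling to the ribosomal protein genes. With each library left out the ranges were -0.10 to 0.32 for rpl22l1, -0.14 to 0.16 for rplp2b, -0.013 to 0.20 for rps8a, -0.0076 to 0.29 for rps27.1 and -0.077 to 0.17 for rpl7. The correlation with the common profile turned to 0.55 for rpl3 and moved to 0.76 for rpl5a with library totals, and the latter was -0.021 to 0.42 with each library left out. The count of 59 members with the larger spread in wild fish was 37 with library totals and 59 to 64 with each library left out. Beyond that common shift, the cause of these moves was not tested. The median correlation of the members was 0.79 to 0.90 with each library left out, and the difference in share of gene counts -1.08 to -0.36 percentage points. Level per length and the sequence at promoter starts were not run. Counts of 3 or fewer in a library occurred only in the 11 members that were not tested, and are not read as low expression. The parts of depth and of the counting of shared reads in them were not tested.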
